A study of Mus musculus with 2 samples.

Results

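Plasmacytoid dendritic cells were examined in single-cell transcriptomes of mouse bone marrow. A barcode of either library was counted as such a cell when it held at least 1000 unique molecular identifiers (UMIs, each standing for 1 captured transcript) of which under 10% came from mitochondrial genes, at least 3 UMIs summed over Siglech, Ccr9, Klk1 and Cox6a2 with at least 1 of Siglech, at most 2 UMIs of the B cell genes Cd79a and Cd79b, and under 5% of its UMIs from the neutrophil genes S100a8 and S100a9. The cells were thus selected on their measured UMIs of these genes. This rule found 318 cells among the 23794 barcodes that passed the UMI and mitochondrial limits (the kept barcodes) and among 31569 barcodes in all. The study asked how gene expression in bone marrow hematopoietic cells differs after MYC is overexpressed from stem cells. The control library had the genotype Mx1Cre+/-;Rosa26+/+ and the MYC library the genotype Mx1Cre+/-;Rosa26LSL-MYC/LSL-MYC, so both carried 1 copy of Mx1Cre. In the second genotype both Rosa26 alleles hold a MYC gene behind a loxP-flanked stop cassette. Mx1Cre expresses Cre recombinase from the promoter of Mx1, which answers interferon and is active in hematopoietic and other cells. Age, sex, the number of animals, and whether, when and with what Cre was induced in either group are not given in the labels.

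Plasmacytoid dendritic cells are bone marrow-derived immune cells that sense viral RNA and DNA inside endosomes through Tlr7 and Tlr9 and answer with large amounts of type I interferon. The receptors reach the endosome with the chaperone Unc93b1 and signal through Myd88, Irak4 and Irak1 to Irf7, the factor that switches on the interferon genes. The lineage is held in place by the transcription factor Tcf4 (E2-2), with Spib, Irf8, Runx2 and Bcl11a, and the cells leave the marrow with chemokine receptors and integrins. They arise from both lymphoid and myeloid progenitors, carry a well developed secretory apparatus, and are known to divide little once mature.

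Each group had 1 library, so no difference below has a replicate check and none was tested. Levels are UMIs summed over the cells of a library and given as CPM, the count scaled to a total of 1e+06 UMIs. Differences are log2 ratios of CPM, MYC library over control library, after adding 1 CPM. Intervals are 95% intervals that cover counting error only, not differences between animals or preparations. They are exact, except that differences between 2 shares have Newcombe intervals. The libraries held 17073 and 14496 barcodes with 131884603 and 110012176 UMIs, and kept barcodes had a median of 6704 and 7570 UMIs. The 252 control and 66 MYC cells had 2399121 and 717205 UMIs, with a median of 8726 UMIs (1278 to 43870) and 9126.5 UMIs (4288 to 25599), so depth per cell was close. Gm42418, a feature that overlaps ribosomal RNA, took 26.5% of the cells' UMIs in control and 13.8% in the MYC library, against 13.7% and 7.003% in all kept barcodes. Leaving this feature out of the totals moved the median ratio of all genes of at least 20 CPM to log2 -0.24, so ratios just past 2-fold higher fall short of it on that scale, and list counts that it moves by over 1.5 times are given beside the reported ones. The libraries shared 97 barcode sequences, of which 0 belonged to control and 1 to MYC cells. Xist stood at 1569 and 1210 CPM, and Ddx3y, Uty, Kdm5d and Eif2s3y had 0 UMIs in the cells of both libraries.

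The feature named MYC, the last in the matrices, was barely seen in these cells. Its sequence is not given in the sources used here, so its level says only how many UMIs that feature drew. It had 0 UMIs in the control cells and 1 UMI in 1 of 66 MYC cells, a level of 1.39 CPM (0.0353 to 7.77). Over all barcodes it drew 329 UMIs in the MYC library and 0 in the control, which matches the labels. The mouse gene Myc had 12 UMIs in 7 control cells, 5.002 CPM (2.58 to 8.74), and 10 UMIs in 4 MYC cells, 13.9 CPM (6.69 to 25.6). The log2 ratio was 1.32 (0.11 to 2.82) and rests on these few UMIs.

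Most markers that the rule did not use were seen in most of the cells. Klra17, a lectin-like receptor, was seen in fewer, in 50.4% of control and 21.2% of MYC cells. Tcf4, the defining factor of the lineage, had a UMI in 249 of 252 control cells (98.8%) and 65 of 66 MYC cells (98.5%). In neutrophil-rich barcodes, those with at least 5% S100a8 and S100a9 UMIs, the share with a Tcf4 UMI was 12.2% and 8.99%, at median depths of 5428 and 6743 UMIs. This share serves as the background measured the same way. What gives rise to it was not tested, and 33 control and 7 MYC-library barcodes of that set passed the marker limits. Irf8 had a UMI in 99.6% and 100% of the cells, against 11.5% and 9.23% of neutrophil-rich barcodes. Bst2, a surface protein that is also induced by interferon, had one in 98.0% and 100%, against 10.3% and 10.1%. Both are shared with other dendritic cells: in barcodes with conventional dendritic markers, at median depths of 10234 and 11810 UMIs, Irf8 had a UMI in 54.8% and 75% and Bst2 in 61.6% and 62.5%. Runx2, which mature cells need to leave the marrow, had one in 95.6% and 93.9%, against 16.6% and 10.9%. Spib, a partner of Tcf4, had one in 84.5% and 71.2%, against 2.76% and 0.409%.

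Tcf4 per cell had a median of 19 UMIs (0 to 42) in control and 11 UMIs (0 to 26) in the MYC library. The ranges overlap, with the centre lower in the MYC library. Irf8 had a median of 28 UMIs (0 to 80) and 23 UMIs (1 to 72), also overlapping. Bst2 and Ly6d were ordered the other way, with medians of 15 and 23 UMIs for Bst2 and of 6 and 14.5 UMIs for Ly6d, a surface protein of lymphoid-derived precursors. Tcf4, Spib, Irf8 and Ly6d are shared with the B lineage, whose barcodes had median depths of 5500.5 and 5643.5 UMIs. Of control and MYC-library B lineage barcodes, Tcf4 had a UMI in 72.0% and 58.9% and Spib in 58.1% and 31.1%. Irf8 had one in 67.3% and 58.9% of them and Ly6d in 77.2% and 87.9%. Tcf4 also had one in 58.9% and 41.7% of barcodes with conventional dendritic markers. Pacsin1, a membrane-bending protein that few other blood cells express, had a UMI in 77.8% of control and 51.5% of MYC cells but in 4.86% and 7.37% of B lineage barcodes.

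The 4 genes that chose the cells also differed in level, which is given as a description only. Siglech, an inhibitory lectin that marks these cells in mice (7:55768178-55778925, plus strand, GRCm38), stood at 2171 CPM in control and 947 CPM in MYC cells, with a median of 21 and 8 UMIs per cell. Ccr9, a receptor for a gut and thymus chemokine, stood at 839 and 336 CPM and had a UMI in 225 of 252 and 42 of 66 cells. Klk1, a kallikrein protease, stood at 414 and 107 CPM. Cox6a2, a respiratory chain subunit otherwise typical of muscle, stood at 698 and 970 CPM and was the only one of the 4 that was higher in the MYC library.

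Plasmacytoid dendritic cells made up 252 of 13251 kept control barcodes, 1.90% (1.68 to 2.15), and 66 of 10543 kept MYC-library barcodes, 0.626% (0.484 to 0.796). The share was thus 3.04-fold higher in the control (2.31 to 4.05), a difference of -1.28 percentage points (-1.56 to -0.993). Much of the marrow is neutrophils, so the share was also taken among kept barcodes with under 5% S100a8 and S100a9 UMIs. There it was 252 of 5872 (4.29%) and 66 of 4193 (1.57%), 2.73-fold apart (2.07 to 3.63). The fold ranged from 2.23, with under 5% mitochondrial UMIs (127 and 47 cells), to 4.64, with at least 20 marker UMIs (204 and 35 cells). Since the rule needs marker UMIs and 3 of the 4 marker genes and their sum were lower per cell in the MYC library, fewer cells and cells missed for low marker levels cannot be fully told apart. Barcodes just outside the marker limit, with 2 UMIs, numbered 4 in each library, and those just inside, with 3 UMIs, numbered 2 and 3.

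**Figure D1:**
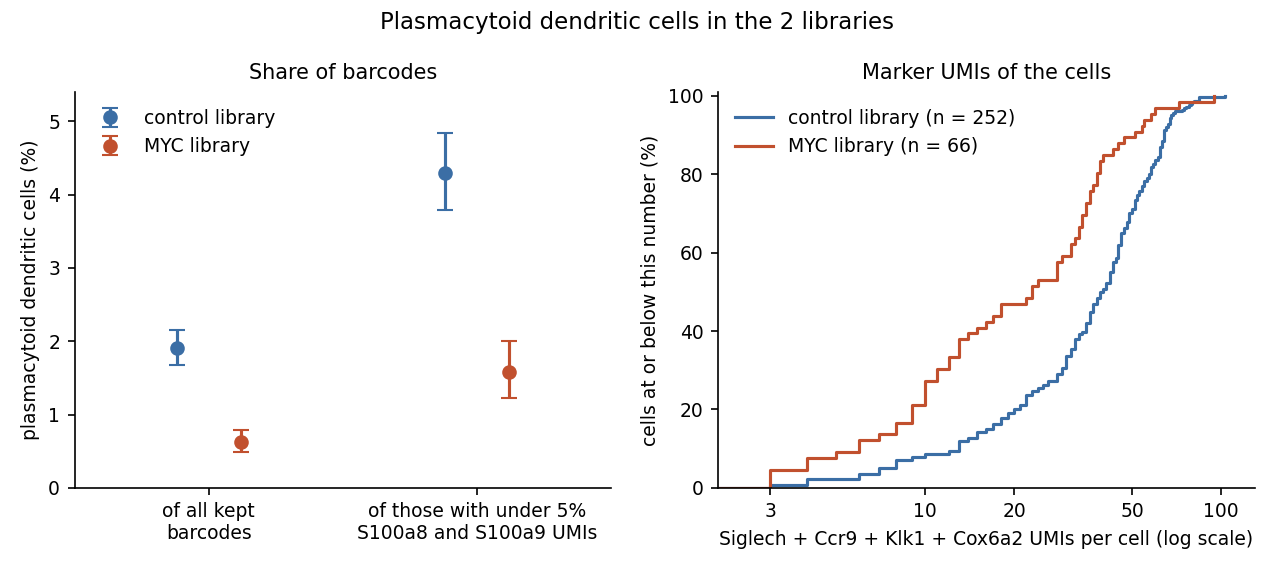
Left, the share of barcodes that are plasmacytoid dendritic cells (percent, linear axis) in the control and MYC libraries over 2 denominators, with points for the share and bars for exact 95% intervals; the control stands at 1.90% and 4.29% and the MYC library at 0.626% and 1.57%. Right, the cumulative share of cells (percent) by their summed Siglech, Ccr9, Klk1 and Cox6a2 UMIs (log axis); the MYC curve lies to the left, with a median of 23 against 39.5 UMIs.

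The cells were not uniform, and the libraries differed in how many stood near the edge of the rule. Cells with 3 to 9 marker UMIs made up 7.94% of the control and 21.2% of the MYC cells, those with 10 to 19 made up 11.1% and 25.8%, and those with 20 or more made up 81.0% and 53.0%. Tcf4 stood at 1075, 1524 and 2166 CPM in these control bands and at 550, 928 and 1400 CPM in the MYC bands. Within each band Tcf4 was thus lower in the MYC library. Spib stood at 53.5, 204 and 345 CPM in the control and at 58.7, 56.3 and 199 CPM in the MYC library, close in the lowest band and lower in the MYC library in the others. Bst2 stood at 637, 1261 and 1762 CPM and at 1062, 1604 and 2703 CPM, higher in the MYC library in every band.

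Lgals3 and Vim ran the other way. Lgals3 (galectin-3), abundant in macrophages and monocytes, stood at 287, 145 and 58.8 CPM in the control bands and at 971, 338 and 82.4 CPM in the MYC bands. Vim (vimentin), an intermediate filament protein of immature and migrating cells, stood at 710, 463 and 173 CPM and at 1713, 928 and 591 CPM. Both were highest in the cells with the fewest marker UMIs, and Vim remained higher in the MYC library in the highest band. F13a1, a transglutaminase chain of monocytes, did not follow them, at 82.7, 95.3 and 55.2 CPM in control and 85.4, 11.3 and 8.52 CPM in MYC bands. Ms4a6c, S100a4 and Klf4 did, being highest in the lowest band of each library. In that band they stood at 297, 302 and 175 CPM in the control and at 550, 811 and 315 CPM in the MYC library. In the highest band they stood at 74.0, 87.2 and 41.1 CPM and at 79.5, 122 and 34.1 CPM. Mki67, a nuclear protein of dividing cells, stood at 1143, 463 and 282 CPM in the control and at 390, 259 and 332 CPM in the MYC library. The barcodes just outside the limit carried Tcf4 at 327 and 298 CPM and those just inside at 173 and 415 CPM, on 4 and 4 and on 2 and 3 barcodes. Because the bands are filled differently, values below are repeated for cells with at least 20 marker UMIs wherever this ends a 2-fold difference or moves one by over 1.5 times.

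Markers of other cell types were present at different levels, given here beside those of all kept barcodes. The 20 neutrophil transcripts summed to 6644 CPM in control and 6718 CPM in MYC cells, against 151093 and 191709 CPM in all kept barcodes. The 11 plasma cell markers summed to 358 and 269 CPM with Prdm1 at 0, against 1269 and 621 CPM, and the 9 basophil and mast cell markers to 37.5 and 25.1 CPM, against 723 and 779 CPM. These 3 groups were thus below the whole marrow in both libraries. The 15 B cell markers summed to 217 and 188 CPM, with Ms4a1 and Pax5 at 0 UMIs in the MYC cells, against 519 and 172 CPM. The 14 T and NK cell markers summed to 178 and 148 CPM, with Cd3d, Cd3e, Cd3g and Trac at 0 in the MYC cells, against 194 and 138 CPM. The 12 monocyte markers summed to 1294 and 1258 CPM, against 1056 and 1374 CPM, and the 11 stem and progenitor markers to 188 and 363 CPM, against 182 and 166 CPM. Monocyte and T and NK markers were thus near the level of all kept barcodes. The stem and progenitor sum lay above that level in the MYC library. Cd48, 1 of these 11 markers, alone stood at 84.6 CPM in control and 258 CPM in MYC cells. The 3 of the 11 that reached 20 CPM had a median log2 ratio of -0.18, with 1 past 2-fold higher. The part of such RNA in the results was not tested. The 12 erythroid markers differed most between the cells of the libraries, at 8476 CPM in control and 874 CPM in MYC cells, against 20548 and 8952 CPM in all kept barcodes. Nearly every cell carried some, with at least 3 UMIs in 250 of 252 control and 65 of 66 MYC cells and medians of 13 and 8 UMIs per cell. Some cells carried far more: 10 control cells and 0 MYC cells had over 1% of their UMIs from haemoglobin genes and the platelet gene Pf4, up to 25.2%, and the richest barcode held 22.1% of the erythroid UMIs. Named 2-fold differences that end without these 10 barcodes, and list counts that they move by over 1.5 times, are given with and without them. The 10 macrophage markers summed to 23.3 and 110 CPM, against 171 and 348 CPM, and 45 of the 79 UMIs in the MYC library came from 1 barcode.

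Of 1239 genes averaging 100 CPM or more over the libraries, 160 (12.9%) were past 2-fold higher and 63 (5.08%) past 2-fold lower in the MYC library, with a median log2 ratio of 0.22. Of the higher genes 42 encode ribosomal proteins. Without Gm42418 in the totals the split turned to 80 higher and 150 lower, with median-of-ratios scaling to 77 and 105, and among cells with at least 20 marker UMIs it was 127 and 33. The balance between higher and lower genes therefore rests on the scaling, and ratios are best read against one another. At the lower limit of 20 CPM, used for gene lists, 419 of 5561 genes (7.53%) were past 2-fold higher and 344 (6.19%) past 2-fold lower. Their median log2 ratio was 0.00. These shares hold for the reported setting only. They were not taken at 20 CPM under the alternatives, so list counts given for those are descriptions.

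Some of the 2-fold differences named below end under another setting. Without Gm42418 in the totals Bid, Eif4a1, Eif5a, Klf4, Lgmn, Ms4a6c, Pclaf, Psmb8, Ran and Spi1 had log2 ratios of 0.85 to 0.99, short of 2-fold. With CPM averaged over cells in place of summed UMIs, Ccl4, Cd4, Ctsb, Dnajb9, H2-Aa, Isg20, Lair1 and Odc1 had ratios of -0.98 to -0.75, and Bid, Mxd3, Pclaf and Spi1 of 0.60 to 0.97. Barcodes were also thinned to 2000 UMIs before the rule was applied, which left 225 control and 45 MYC cells and few UMIs per gene. After thinning Birc5, Dut, Eif5a, Ifi30, Klf4, Lgals3, Mxd3, Ran and Stmn1 had ratios of 0.15 to 0.88, and Ctsb, H2-Aa, Lair1, Odc1, Sema4b and Slc15a4 of -0.93 to -0.63. Fosb, Itga4 and Rpgrip1 were then at -1.27, -1.16 and -1.08, still past 2-fold. Klf6, Igkc, Dnajb9, Cd209a, Car2 and Ccl4 moved further down, to between -1.82 and -4.54, and Sdhb moved up to 2.51. Other genes that ended or turned are given with their values below.

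The 12 highest ratios included linker histones, a microtubule regulator and proteins of the cytoskeleton and lysosome. Linker histone Hist1h1b stood at 246 CPM in control and 1043 CPM in MYC cells (log2 2.08), and Hist1h1e at 210 and 708 CPM (log2 1.75). Stmn1 (stathmin), which destabilises microtubules in dividing cells, stood at 231 and 706 CPM (log2 1.60, and 0.88 after thinning). Rbm3, a cold-inducible RNA-binding protein, stood at 296 and 1128 CPM (log2 1.93, 1.79 to 2.08). It had a UMI in 214 of 252 control and all 66 MYC cells. In all other kept barcodes with few S100a8 and S100a9 UMIs Rbm3 stood at 393 CPM in control and 1052 CPM in the MYC library. Vim stood at 439 and 1028 CPM there, and Lgals3 at 298 and 1069 CPM. The part of RNA from other cells in the counts of Rbm3, Vim and Lgals3 was not tested. In the plasmacytoid dendritic cells Vim stood at 246 and 968 CPM (log2 1.97) and had a UMI in 138 of 252 and 57 of 66 cells. Lgals3 stood at 86.3 and 378 CPM (log2 2.12) with a UMI in 45 and 34 cells, and its ratio was 0.48 among cells with at least 20 marker UMIs.

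The other genes of this group were Nme2, a nucleoside diphosphate kinase, at 234 and 700 CPM (log2 1.58), Cd48, an adhesion ligand of blood cells, at 84.6 and 258 CPM (log2 1.60), and Ifi30, a lysosomal thiol reductase of antigen processing, at 160 and 487 CPM (log2 1.60, and 0.69 after thinning). Dctpp1, which degrades dCTP, Ifitm2, an antiviral membrane protein, and S100a10, a partner of annexin A2, had log2 ratios of 1.57, 1.60 and 1.56. Among cells with at least 20 marker UMIs these 3 stood at 0.95, 0.89 and 0.90, short of 2-fold. In all other kept barcodes with under 5% S100a8 and S100a9 UMIs the 12 ratios were also above 0. There Lgals3, Ifitm2, Ifi30, Nme2, Rbm3, Vim and S100a10 had log2 ratios of 1.84, 1.72, 1.48, 1.43, 1.42, 1.22 and 1.09. Dctpp1, Hist1h1e, Hist1h1b, Cd48 and Stmn1 were short of 2-fold there, at 0.95, 0.95, 0.86, 0.79 and 0.48. Reads of histone and Nme genes can be shared with near-identical copies, Nme1 beside Nme2 among them, so the level of a single copy is uncertain.

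The 12 lowest ratios included Irf7, of interferon signalling, and several receptors of the cell surface. Irf7, the master regulator of interferon production, stood at 178 CPM in control and 48.8 CPM in MYC cells (log2 -1.85, -2.41 to -1.37) and had a UMI in 146 of 252 and 19 of 66 cells. After thinning its ratio was -0.76. Jun, an AP-1 factor, stood at 521 and 201 CPM (log2 -1.37) and reached -0.98 among cells with at least 20 marker UMIs. Rpgrip1, best known from photoreceptor cilia, stood at 357 and 90.6 CPM (log2 -1.97). P2ry14, a receptor for UDP-glucose, stood at 260 and 71.1 CPM (log2 -1.86, and -1.28 with at least 20 marker UMIs). Itga4, the alpha4 integrin chain that binds VCAM-1 in the marrow, stood at 279 and 80.9 CPM (log2 -1.77).

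Rell1, a relative of the TNF receptor family member Relt, had a log2 ratio of -1.78 and Tbc1d8, with a Rab GTPase-activating domain, one of -1.49. Sema4b (a semaphorin), Sdc4 (a syndecan) and Lrp8 (a lipoprotein receptor) had ratios of -1.46, -1.45 and -1.38, and of -0.77, -0.97 and -0.89 with at least 20 marker UMIs. Car2, a carbonic anhydrase abundant in erythroid cells, had the lowest ratio in this ranking, which took genes of at least 100 CPM and left out haemoglobin and other sets, at -2.70 (251 and 37.6 CPM), which was -0.89 without the 10 haemoglobin-rich control cells. Irf7, Itga4, Jun, Lrp8, P2ry14, Rbm3, Rell1, Rpgrip1 and Tbc1d8 overlap a gene on the other strand, and Hist1h1e overlaps Hist1h2be on the same strand. In the other kept barcodes with under 5% S100a8 and S100a9 UMIs Sdc4, Car2 and Sema4b were past 2-fold lower, at -2.20, -1.55 and -1.54. Irf7, Rell1, Itga4, Rpgrip1 and Lrp8 were short of 2-fold there, at -0.75, -0.72, -0.65, -0.25 and -0.16. P2ry14, Jun and Tbc1d8 had ratios above 0 there, at 0.62, 0.10 and 0.09.

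**Figure D2:**
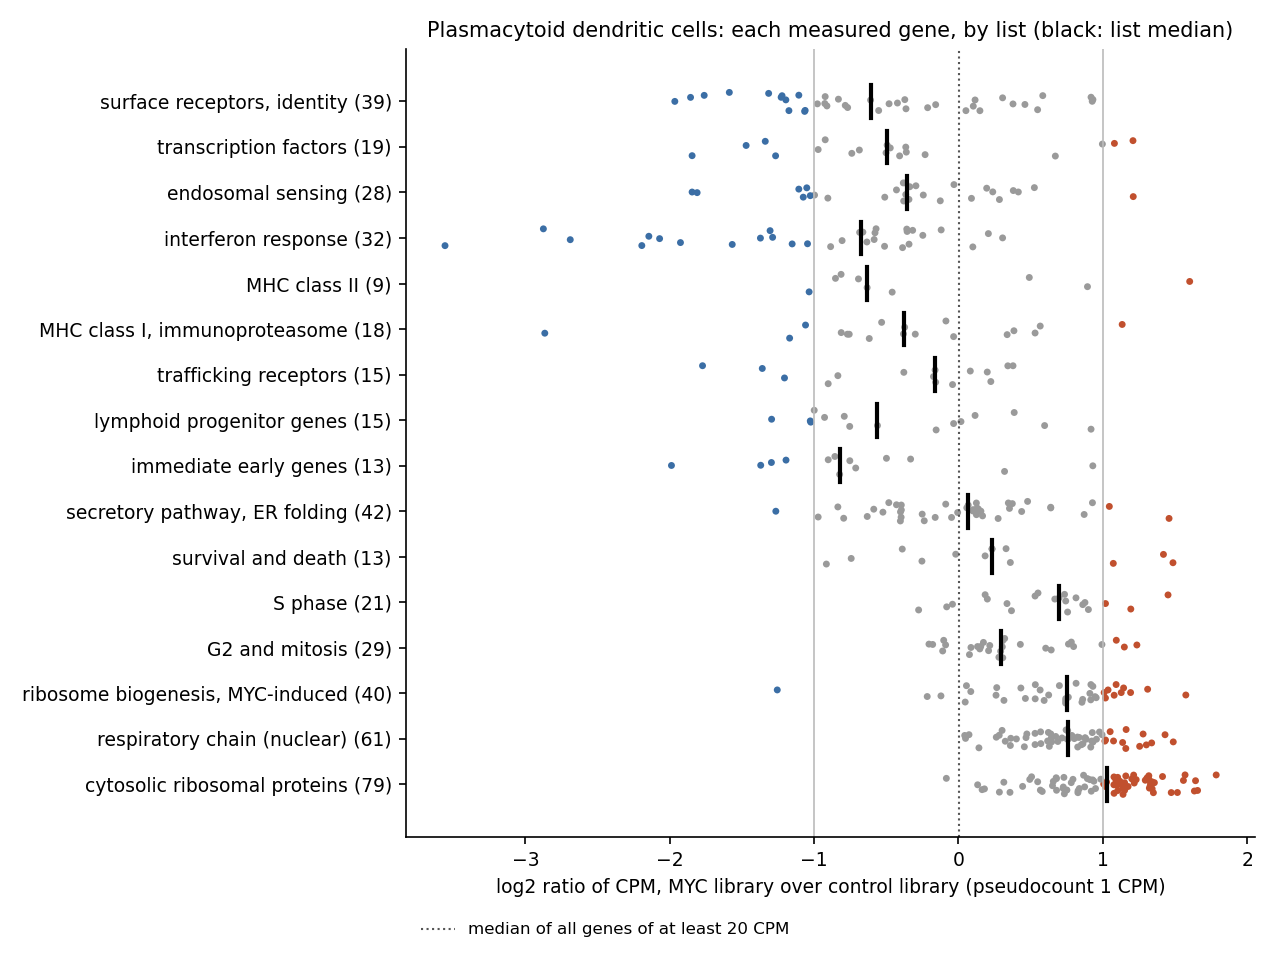
Each point is 1 gene averaging 20 CPM or more in plasmacytoid dendritic cells, placed by its log2 ratio of CPM (MYC library over control library) within 16 gene lists, with the number of genes in parentheses; black bars are list medians, grey lines mark 2-fold, and blue and red points lie past it. The interferon response list has 13 of 32 genes past 2-fold lower and the ribosomal protein list 42 of 79 past 2-fold higher. Over all genes of at least 20 CPM 6.19% lie past 2-fold lower and 7.53% past 2-fold higher.

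Most genes of the endosomal sensing machinery were short of 2-fold, with Tlr7 among those past it. Of 36 listed genes 28 reached 20 CPM, and 6 of these were past 2-fold lower, beside 6.19% of all genes, 1 past 2-fold higher and 8 above 0. The median log2 ratio was -0.35 (-0.58 without Gm42418). The number past 2-fold lower was 4 of 27 with at least 20 marker UMIs, 8 of 28 without Gm42418 and also without the haemoglobin-rich barcodes, and 2 of 25 after thinning. Tlr7, the receptor for single-stranded RNA (X:167304929-167330558, minus strand, GRCm38), stood at 95.5 CPM in control and 26.5 CPM in MYC cells (log2 -1.81, -2.61 to -1.17), with a UMI in 129 of 252 and 15 of 66 cells, and its ratio was -0.96 after thinning. Slc15a4, a lysosomal transporter needed for Tlr7 and Tlr9 responses, stood at 79.2 and 36.3 CPM (log2 -1.11, and -0.74 after thinning), and Ap3d1, a subunit of the adaptor that sorts receptors to signalling endosomes, at 67.5 and 32.1 CPM (log2 -1.05). Tlr9 was too low to compare, with 12 UMIs in 12 control cells and 3 UMIs in 3 MYC cells, 5.002 and 4.18 CPM.

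The receptors' common chaperone and adaptors differed less than Tlr7 and Irf7. Unc93b1 stood at 415 and 322 CPM (log2 -0.37), Irak1 at 88.4 and 86.4 CPM (log2 -0.03) and Myd88 at 30.8 and 40.4 CPM (log2 0.38, -0.28 to 1.03). Tyrobp, the signalling adaptor of Siglech, stood at 1608 and 2144 CPM (log2 0.41). Of the proteases that cut the receptors, Ctsb (cathepsin B) had a ratio of -1.08 (-0.77 with at least 20 marker UMIs), Ctsl one of -0.51 and Ctss one of -0.34, while Lgmn (legumain) was the only listed gene past 2-fold higher, at 22.9 and 54.4 CPM (log2 1.21). Lgmn was short of 2-fold with at least 20 marker UMIs (0.87) and without Gm42418 (0.99), and turned to -5.005 on the few UMIs left after thinning. Pld4, an endosomal nuclease that limits Tlr9 signalling, stood at 505 and 252 CPM (log2 -0.997, -1.23 without Gm42418 and -1.06 without the haemoglobin-rich barcodes).

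Genes induced by type I interferon had ratios below 0 with few exceptions. Of 53 listed genes 51 are among the features and 32 reached 20 CPM. Of these 13 were past 2-fold lower, 0 past 2-fold higher and 3 above a ratio of 0, with a median log2 ratio of -0.67, against 6.19% of all genes past 2-fold lower. The median was -0.69 among cells with at least 20 marker UMIs and ranged from -1.25 to -0.48 over all alternatives. After thinning 9 of 30 were past 2-fold lower, on few UMIs per gene and with no share of all genes beside them. The 19 genes in the features that missed 20 CPM were not counted. Genes could pass the limit on their control level alone, so the count is a description of those measured.

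Some of these genes were seen across the cells and others in a minority of control cells. Stat2, which forms part of the interferon-activated complex with Irf9, stood at 134 and 44.6 CPM (log2 -1.57, -2.16 to -1.06) with a UMI in 156 of 252 and 21 of 66 cells. Trim30a, an interferon-induced regulator of signalling, stood at 257 and 105 CPM (log2 -1.29, and -0.95 with at least 20 marker UMIs) with a UMI in 207 and 40 cells. Strongly inducible genes were seen in fewer cells. Isg15, a ubiquitin-like modifier, stood at 50.4 and 6.97 CPM (log2 -2.69, -4.50 to -1.59, and -1.41 after thinning) with a UMI in 54 and 5 cells. Rsad2 (viperin), an antiviral enzyme, had 144 UMIs in 39 control cells, 26.4% of them in 1 barcode, and 3 UMIs in 3 MYC cells (log2 -3.56, -6.14 to -2.27, -2.75 with at least 20 marker UMIs and -2.04 after thinning). Ifi44 was seen in 61 and 5 cells, Herc6 in 56 and 5, Usp18 in 41 and 5 and Isg20 in 34 and 5, with log2 ratios of -2.88, -2.07, -1.93 and -2.15. With at least 20 marker UMIs Usp18 stood at -1.26, without the haemoglobin-rich barcodes Isg20 stood at -0.89, and after thinning Ifi44 and Isg20 stood at -0.66 and -0.79.

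Other interferon-induced genes did not differ 2-fold. Ly6e stood at 1578 and 1231 CPM (log2 -0.36), Ifi27l2a at 496 and 347 CPM (log2 -0.51), Irf9 at 80.03 and 50.2 CPM (log2 -0.66) and Ifitm3 at 138 and 127 CPM (log2 -0.12). Bst2 had a ratio above 0, at 1620 and 2002 CPM (log2 0.31, 0.22 to 0.39). Counted per cell after each was thinned at random to 2000 UMIs, the 51 genes gave a median of 6 genes with a UMI (0 to 24) in 250 control cells and 5 genes (0 to 10) in 66 MYC cells. The middle part of the cells, from the first to the third quartile, held 5 to 8 genes in control and 4 to 6 in the MYC library, so the centres were close. The interferon receptor chains Ifnar1 and Ifnar2 had log2 ratios of -0.65 and -0.02. All 11 interferon ligand genes looked at, among them Ifnb1, Ifna2 and Ifna4, had 0 UMIs in the cells of both libraries, which allows up to 1.25 CPM in control and 4.18 CPM in MYC cells, the level of 3 counts. Slfn, Trim and H2-Q genes have near-identical relatives, so their single levels are uncertain. Mx1 drives Cre in both genotypes, and neither Mx1 nor Mx2 is among the features; the part of any Cre induction in these values was not tested.

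Promoters of the measured interferon-response genes were searched for GAAANNGAAA on both strands, the core to which interferon regulatory factors bind. The window was the 250 bases before the gene start in RefSeq on GRCm38.p6. A match stood in 7 of the 11 lower genes that have a window (63.6%), in 3 of 14 other measured genes of the list (21.4%), in 147 of 4476 genes with at least 20 CPM (3.28%) and in 978 of 32851 windows in all (2.98%). The following stretches, on the strand of the gene, show the matches in capitals for 4 of the lower genes and for Bst2, which was not lower:
Isg15, chr4:156200835-156200936, minus strand: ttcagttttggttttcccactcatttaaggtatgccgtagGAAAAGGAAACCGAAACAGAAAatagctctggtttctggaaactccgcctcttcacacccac
Stat2, chr10:128270248-128270325, plus strand: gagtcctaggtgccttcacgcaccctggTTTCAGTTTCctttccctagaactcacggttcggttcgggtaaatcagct
Trim30a, chr7:104465194-104465269, minus strand: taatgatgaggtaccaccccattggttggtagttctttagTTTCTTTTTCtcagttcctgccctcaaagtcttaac
Rsad2, chr12:26456523-26456612, minus strand: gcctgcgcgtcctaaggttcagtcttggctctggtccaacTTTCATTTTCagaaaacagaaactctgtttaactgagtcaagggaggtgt
Bst2, chr8:71537547-71537642, minus strand: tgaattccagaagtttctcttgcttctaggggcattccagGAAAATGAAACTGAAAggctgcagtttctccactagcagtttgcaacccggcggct
Isg15 holds 3 overlapping matches and Bst2 holds 2, so a gene with a ratio above 0 carries the same letters. A match is a description of the sequence and shows neither binding nor a cause.

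**Figure D3:**
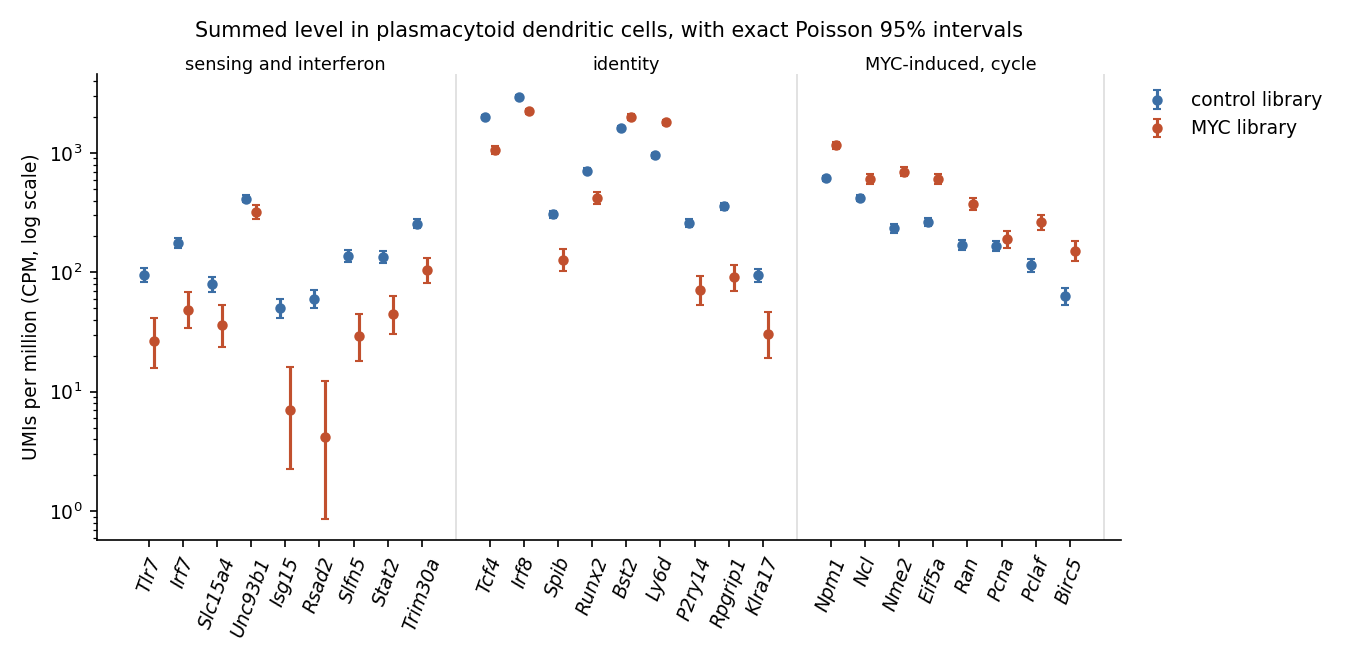
Levels of named genes in plasmacytoid dendritic cells of the control and MYC libraries (CPM, log axis), with points for UMIs summed over 252 and 66 cells and bars for exact Poisson 95% intervals that cover counting error. Tlr7, Irf7 and the interferon-response genes lie lower in the MYC library, Bst2 and Ly6d higher, and Unc93b1 and Pcna lie close.

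Most transcription factors of the lineage had ratios below 0 and were short of 2-fold. Of 28 listed factors 19 reached 20 CPM, with 4 past 2-fold lower, 2 past 2-fold higher and a median log2 ratio of -0.49. Over all genes of at least 20 CPM 6.19% were past 2-fold lower and 7.53% past 2-fold higher. Of the 19, 4 had a ratio above 0. Past 2-fold lower and higher were 2 and 1 with at least 20 marker UMIs, 6 and 0 of 20 without Gm42418, and 6 and 2 without the haemoglobin-rich barcodes. Tcf4 itself stood at 2013 and 1061 CPM (log2 -0.92, -1.04 to -0.81) and Runx2 at 708 and 424 CPM (log2 -0.74). Irf8 stood at 2969 and 2238 CPM (log2 -0.41), Bcl11a, a Tcf4 target that feeds back on it, at 703 and 506 CPM (log2 -0.47), and Zeb2, a repressor needed for the lineage, at 566 and 402 CPM (log2 -0.49). These 5 were short of 2-fold in the reported values, but Tcf4 was past it at -1.15 without Gm42418 and -1.01 without the haemoglobin-rich barcodes, and Runx2 at -1.23 after thinning.

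Spib stood at 307 and 127 CPM (log2 -1.27, and -0.79 with at least 20 marker UMIs). Ets1, a lymphoid factor, stood at 150 and 58.6 CPM (log2 -1.34, and -0.71 in those cells), and Ikzf2 (Helios) at 40.4 and 13.9 CPM (log2 -1.47). Spi1 (PU.1) and Klf4, factors of myeloid and monocytic cells, were the 2 past 2-fold higher, at 70.03 and 149 CPM (log2 1.08) and at 57.9 and 135 CPM (log2 1.21). Among cells with at least 20 marker UMIs Spi1 was at 0.43 and Klf4 at -0.26, so the higher levels sat in cells with few marker UMIs, and Spi1 turned to -2.04 after thinning. Runx1, a factor of progenitors, stood at 94.2 and 151 CPM (log2 0.67).

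Surface and identity genes were mostly short of 2-fold. All 39 listed genes outside the rule were measured, with a median log2 ratio of -0.61. Of these 12 were past 2-fold lower and 0 past 2-fold higher, beside 6.19% and 7.53% of all genes, and 12 were above 0. Without Gm42418 18 were past 2-fold lower. Among cells with at least 20 marker UMIs the median was -0.34, with 5 past 2-fold lower and 2 past 2-fold higher, and after thinning it was -0.29, with 7 and 4. Cd209d, a C-type lectin, stood at 116 and 33.5 CPM (log2 -1.76) and Klra17, a lectin-like receptor, at 94.2 and 30.7 CPM (log2 -1.59, and -0.45 after thinning). Ptprs, a receptor phosphatase that restrains these cells, stood at 230 and 97.6 CPM (log2 -1.23, and -0.89 with at least 20 marker UMIs), Lag3, an inhibitory receptor, at 91.7 and 36.3 CPM (log2 -1.32) and Lair1, a collagen receptor, at 528 and 252 CPM (log2 -1.06, and -0.61 in those cells). Cd4 stood at 135 and 58.6 CPM (log2 -1.20), and at -0.57 with at least 20 marker UMIs.

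Identity genes with a ratio above 0 included Plac8, a small cysteine-rich protein of precursors, at 1390 and 2642 CPM (log2 0.93), Ly6d at 954 and 1804 CPM (log2 0.92), Cd8a at 25.8 and 50.2 CPM (log2 0.93) and Cd7 at 200 and 300 CPM (log2 0.58). Each was short of 2-fold, though Ly6d was at 1.26 among cells with at least 20 marker UMIs and 1.28 after thinning. Ly6c2 stood at 859 and 952 CPM (log2 0.15). Of 39 listed identity genes counted per cell at 2000 UMIs, a median of 16 had a UMI in control cells (0 to 26) and 13.5 in MYC cells (4 to 24), ranges that overlap.

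Genes that most set these cells apart from all other barcodes with under 5% S100a8 and S100a9 UMIs are named as a description. After the rule genes they were led in the control by Gm21762 (125-fold over the other barcodes), Cd209d (88.0-fold), the receptor Cd300c (76.0-fold) and Pacsin1 (56.0-fold). In the MYC library the folds of these 4 were 95.6, 30.2, 63.1 and 50.3. Cyclin D1, encoded by Ccnd1, stood at 594 CPM in control cells (47.9-fold) and 233 CPM in MYC cells (11.9-fold, log2 -1.35). Pltp, a lipid transfer protein, stood at 268 and 141 CPM and at 39.2-fold and 5.04-fold, with 5.87 and 27.1 CPM in the other barcodes. Cd300c, at 130 and 135 CPM (log2 0.05), did not differ in this way.

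Trafficking genes were mostly close. Of 24 listed beside Ccr9, 15 were measured, with a median log2 ratio of -0.16, which was 0.05 with at least 20 marker UMIs. Past 2-fold lower were 3, beside 6.19% of all genes (5 without Gm42418, 1 with at least 20 marker UMIs). The 3 were Itga4, the integrin Itgal (LFA-1 chain) at 172 and 73.9 CPM (log2 -1.21, and -0.88 with at least 20 marker UMIs) and the chemokine Ccl4 on 81 and 9 UMIs (log2 -1.36, and -3.31 in those cells). Cxcr4, which holds cells in the marrow, stood at 43.8 and 57.2 CPM (log2 0.38, -0.17 to 0.92), Cxcr3, an inflammatory chemokine receptor, at 32.9 and 25.1 CPM (log2 -0.38) and Selplg, the selectin ligand, at 446 and 566 CPM (log2 0.34).

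Class II antigen presentation genes had a median log2 ratio of -0.63 over 9 of 15 genes, and -0.10 with at least 20 marker UMIs. After thinning it turned to 0.22, so its direction rests on the processing. Of the 9 genes 1 was past 2-fold lower and 1, Ifi30, past 2-fold higher, beside 6.19% and 7.53% of all genes. Without Gm42418 these counts were 3 and 1. Cd74, the invariant chain, stood at 2453 and 1358 CPM (log2 -0.85, and -1.08 without Gm42418), H2-Aa at 947 and 462 CPM (log2 -1.03, and -0.54 in those cells) and H2-Ab1 at 662 and 376 CPM (log2 -0.81). Within the bands Cd74 stood at 170, 944 and 2859 CPM in the control and at 101.4, 1176 and 2118 CPM in the MYC library, so its level followed the marker UMIs. H2-DMa, which loads peptides, had a ratio above 0, at 198 and 369 CPM (log2 0.89), as did Ifi30.

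Class I genes had a median log2 ratio of -0.38 over 18 of 20 genes. Of these 3 were past 2-fold lower and 1 past 2-fold higher, beside 6.19% and 7.53% of all genes. Without Gm42418 the counts were 4 and 0. B2m, the shared light chain, stood at 1939 and 1263 CPM (log2 -0.62), H2-K1 at 1175 and 689 CPM (log2 -0.77) and H2-D1 at 988 and 930 CPM (log2 -0.09). The chaperone tapasin (Tapbp) stood at 299 and 132.5 CPM (log2 -1.17, -0.996 with at least 20 marker UMIs and -0.70 after thinning). The immunoproteasome subunit Psmb8 went the other way, at 271 and 597 CPM (log2 1.13, and 0.91 without Gm42418).

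Genes of ribosome building and growth that MYC is known to induce had ratios above 0 with few exceptions. Of 50 listed genes 40 were measured, and 37 had a ratio above 0. Of the 40, 10 were past 2-fold higher and 1 past 2-fold lower, beside 7.53% and 6.19% of all genes. The median log2 ratio was 0.75, against 0.00 over all genes of at least 20 CPM. It was 0.54 among cells with at least 20 marker UMIs, with 4 past 2-fold higher, and 0.53 without Gm42418, with 2 of 43 past 2-fold higher, and after thinning 7 of 36 were. Eif5a, a translation factor, stood at 263 and 602 CPM (log2 1.19), Eif4a1, the initiation helicase, at 205.5 and 439 CPM (log2 1.09) and Ran, a nuclear transport GTPase, at 170.5 and 374 CPM (log2 1.13). Among cells with at least 20 marker UMIs these 3 stood at 0.99, 0.81 and 0.78. Npm1 and Ncl, nucleolar proteins, stood at 616 and 1163 CPM (log2 0.92) and at 421 and 609 CPM (log2 0.53).

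Per cell at 2000 UMIs, 7 of the 50 genes had a UMI in the median control cell (1 to 19) and 10 in the median MYC cell (2 to 19). The ranges overlap, and the quartiles were 5 and 8 in control and 7.25 and 12 in the MYC library, so the centre was higher there. Odc1, the first enzyme of polyamine synthesis and a classic MYC target, was the 1 listed gene past 2-fold lower, at 84.6 and 34.9 CPM (log2 -1.26), and stood at -0.50 without the haemoglobin-rich barcodes and -0.90 with at least 20 marker UMIs. The MYC network had 9 measured genes, 2 of them above 0, and a median log2 ratio of -0.31. Past 2-fold higher was 1 and past 2-fold lower were 2, beside 7.53% and 6.19% of all genes. Mxd1, which competes with MYC for Max, stood at 49.2 and 13.9 CPM (log2 -1.75). Mga, the other lower gene, stood at -0.94 with at least 20 marker UMIs and 0.084 after thinning. Mxd3, a relative of Mxd1 in cycling cells, stood at 12.1 and 29.3 CPM (log2 1.21, 0.70 after thinning and 0.60 averaged over cells). Max stood at 51.7 and 46.0 CPM (log2 -0.16).

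Ribosomal protein genes lay above 0 almost without exception, in 78 of 79, with a median log2 ratio of 1.03. Of these genes 42 were past 2-fold higher, beside 7.53% of all genes. Without Gm42418 the median was 0.80 with 21 of 79 past 2-fold higher, and with median-of-ratios scaling 22 were. Rps18 stood at 1012 and 3493 CPM (log2 1.79), and Rpl37a, at 2705 and 2552 CPM (log2 -0.08), was the 1 below 0. Nuclear genes of the respiratory chain were above 0 in 61 of 61, with a median of 0.76. Past 2-fold higher were 13, beside 7.53% of all genes. The count and median were 6 and 0.53 without Gm42418 and 19 and 0.68 after thinning. Atp5g1, a subunit of ATP synthase, stood at 122 and 344 CPM (log2 1.49), Sdhb, of succinate dehydrogenase, at 67.1 and 183 CPM (log2 1.43) and Ndufa5, of complex I, at 71.7 and 73.9 CPM (log2 0.04).

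More of the MYC cells carried S phase transcripts, while the cell cycle lists moved with the setting. The S phase list had 18 of 21 measured genes above 0 and 3 past 2-fold higher, beside 7.53% of all genes. Its median log2 ratio was 0.70, and 0.26 with at least 20 marker UMIs. After thinning it was -0.14, with 3 past 2-fold higher and 4 past 2-fold lower of 16. Without Gm42418 1 of 24 was past 2-fold higher. Without the haemoglobin-rich barcodes 7 of 22 were, with a median of 0.91. Dut, which clears dUTP, stood at 64.6 and 178 CPM (log2 1.45, and 0.61 in those cells), Pclaf, a partner of Pcna, at 115 and 264 CPM (log2 1.19, and -0.93 after thinning), Pcna, the replication clamp, at 167 and 190 CPM (log2 0.18) and Slbp at 82.9 and 68.3 CPM (log2 -0.28). The G2 and mitosis list had 24 of 29 above 0, 3 past 2-fold higher, beside 7.53% of all genes, and a median of 0.29. Without Gm42418 1 of 31 was past 2-fold higher and the median was 0.055, near 0. Without the haemoglobin-rich barcodes 7 of 29 were past 2-fold higher and the median was 0.63. It was 0.90 with 11 past 2-fold higher among cells with at least 20 marker UMIs. Birc5 (survivin) stood at 63.4 and 151 CPM (log2 1.24, and 0.63 after thinning), Top2a at 261 and 323 CPM (log2 0.31) and Mki67 at 373 and 329 CPM (log2 -0.18).

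After thinning to 2000 UMIs, 49 of 250 control cells, 19.6% (14.9 to 25.1), and 26 of 66 MYC cells, 39.4% (27.6 to 52.2), had at least 3 UMIs over the S phase list, a difference of 19.8 points (6.78 to 33.4). For G2 and mitosis the shares were 20% (15.2 to 25.5) and 28.8% (18.3 to 41.3), a difference of 8.79 points whose interval, -3.05 to 22.1, includes 0. Unthinned, the S phase shares were 69.8% and 75.8% and the G2 and mitosis shares 64.7% and 66.7%. The cells with 3 to 19 marker UMIs carried S phase transcripts about as often in both libraries, in 21 of 46 control cells (45.7%) and 16 of 31 MYC cells (51.6%). Among cells with at least 20 marker UMIs the shares were 28 of 204 (13.7%) and 10 of 35 (28.6%), with intervals of 9.32 to 19.2 and 14.6 to 46.3. Such transcripts were thus more common near the edge of the rule, where a larger share of the MYC cells stood. The part of this in the difference between the libraries was not tested.

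**Figure D4:**
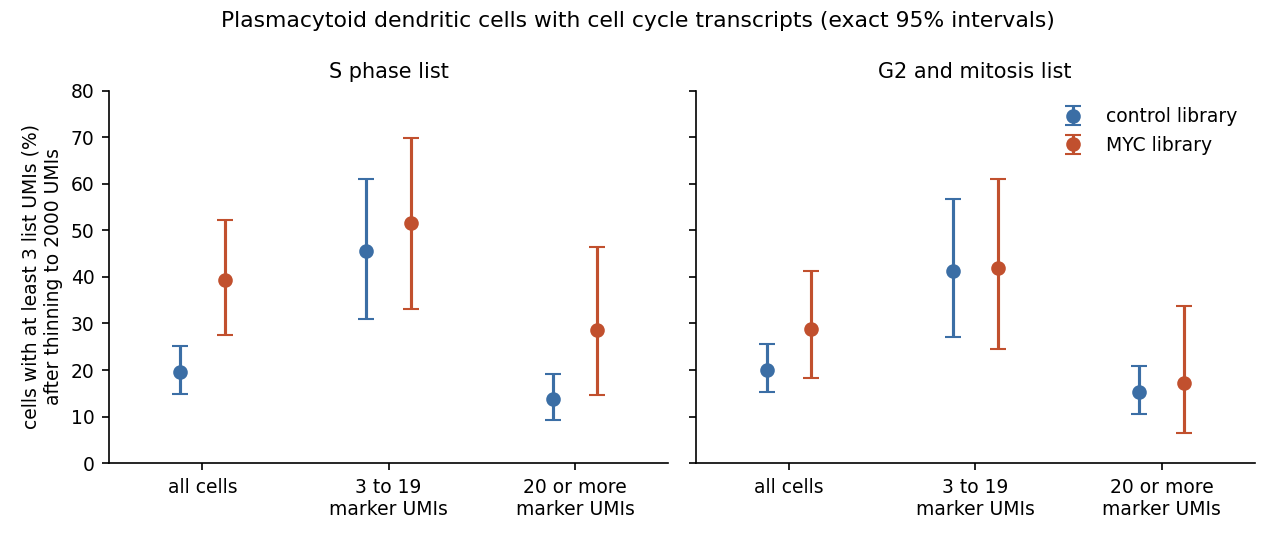
Share of plasmacytoid dendritic cells (percent) with at least 3 UMIs over the S phase list (left) and the G2 and mitosis list (right) after thinning to 2000 UMIs, for all cells and by marker UMIs, with exact 95% intervals. S phase shares are 19.6% and 39.4% for all cells, and 45.7% and 51.6% for cells with 3 to 19 marker UMIs.

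Genes of the secretory pathway, which supports interferon release, were near 0 as a list. Of 45 listed 42 were measured, with a median log2 ratio of 0.06, whose sign differed in 7 of 19 alternatives. Past 2-fold higher were 2 and past 2-fold lower 1, beside 7.53% and 6.19% of all genes. These counts were 1 and 4 without Gm42418, 2 and 2 without the haemoglobin-rich barcodes and 4 and 7 of 40 after thinning. Xbp1, a driver of secretory capacity, stood at 228 and 116 CPM (log2 -0.97) and its target Dnajb9 at 51.7 and 20.9 CPM (log2 -1.27). The chaperone Hspa5 (BiP) stood at 461 and 321 CPM (log2 -0.52). Of the small subunits of translocation, Ssr4 stood at 160 and 441 CPM (log2 1.46) and Sec61b at 526 and 963 CPM (log2 0.87).

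Immediate early genes, which also answer the handling of tissue, had 4 of 13 measured genes past 2-fold lower, beside 6.19% of all genes. Without Gm42418 7 were. Their median log2 ratio was -0.82 (-0.45 with at least 20 marker UMIs). Fosb stood at 141 and 34.9 CPM (log2 -1.99), Fos at 73.4 and 29.3 CPM (log2 -1.30, and -0.72 in those cells) and Klf6 at 161 and 69.7 CPM (log2 -1.19). Nfkbia, an NF-kB inhibitor, had a ratio above 0, at 58.8 and 113 CPM (log2 0.93). Survival and death genes had a median log2 ratio of 0.23 over 13 measured genes, with 3 past 2-fold higher beside 7.53% of all genes. After thinning the median turned to -0.27, with 4 past 2-fold higher and 3 past 2-fold lower of 14. The 3 are pro-apoptotic members, Bad (log2 1.49), Bax at 31.7 and 86.4 CPM (log2 1.42) and Bid (log2 1.07, and 0.97 without the haemoglobin-rich barcodes). Other pro-apoptotic members were short of 2-fold, Apaf1 at -0.02 and Bak1 and Casp8 at 0.23 each. Bcl2, which these cells depend on, stood at 75.9 and 97.6 CPM (log2 0.36, -0.06 to 0.77).

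Lymphoid progenitor genes had a median log2 ratio of -0.56 over 15 of 22 genes, which was -0.15 without the haemoglobin-rich barcodes. Of these 3 were past 2-fold lower, beside 6.19% of all genes. The count was 6 without Gm42418 and 1 of 14 with at least 20 marker UMIs. Immunoglobulin transcripts, made by these cells and also free in droplets, included Igkc at 655 and 266 CPM (log2 -1.29) and Ighm at 1142 and 660 CPM (log2 -0.79). Il7r stood at 198 and 134 CPM (log2 -0.56), and Dntt, the polymerase of lymphoid precursors, at 113 and 114 CPM (log2 0.02). Genes of transitional and conventional dendritic cells had a median log2 ratio of 0.15, whose sign differed in 5 of 19 alternatives. Past 2-fold higher were 4 of 15, beside 7.53% of all genes. These were Lgals3, Cx3cr1 at 11.7 and 36.3 CPM, Klf4 and Ms4a6c. Cx3cr1 and Ms4a6c turned to -1.69 and -1.28 after thinning. Ms4a6c stood at 0.10 with at least 20 marker UMIs. Among cells with at least 20 marker UMIs, 0 were past 2-fold higher and 3 past 2-fold lower, and without Gm42418 2 and 3 of 18 in all cells. Cd209a, a lectin of conventional dendritic cells, stood at 71.3 and 22.3 CPM (log2 -1.63), and Zbtb46, which defines those cells, had 0 UMIs in both libraries.

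The same lists were read in 73 control and 48 MYC-library barcodes with conventional dendritic markers, 1090 and 190 B lineage barcodes, and all 5620 and 4127 other kept barcodes with under 5% S100a8 and S100a9 UMIs, which include the first 2 sets. The make-up of these sets also differed between the libraries, and its part in their medians was not tested. In B lineage barcodes 7 of 12 measured B cell markers were past 2-fold lower, beside 10.2% of all genes there, with a median log2 ratio of -1.11, and 3 macrophage markers lay between 5.85 and 6.70. In conventional dendritic-like barcodes the median of 11 erythroid markers was -4.08 and that of 2 basophil and mast cell markers -4.44. Interferon-response medians were below 0 in each, at log2 -0.79, -0.49 and -0.62, beside -0.67 in plasmacytoid dendritic cells. The counts differed: 17 of 40 genes were past 2-fold lower and 0 higher in conventional dendritic-like barcodes (9.23% and 3.58% of all genes there), 2 of 24 lower and 4 higher in B lineage barcodes (10.2% and 3.83%), and 5 of 33 lower and 1 higher in all other barcodes (3.99% and 2.14%). Of the 24 genes in B lineage barcodes 7 had a ratio above 0, so most lay below it. Endosomal sensing genes stood at -0.13, -0.07 and 0.16 beside -0.35, and immediate early genes at -0.15, 0.29 and -0.07 beside -0.82. Ribosomal protein medians were 0.74, 1.03 and 0.79 beside 1.03. The MYC-induced genes stood at 0.05, 0.18 and 0.41 beside 0.75, and the respiratory chain at 0.37, 0.16 and 0.39 beside 0.76. S phase medians were -0.33, -1.55 and -0.49, beside 0.70 in plasmacytoid dendritic cells, a value that was -0.14 after thinning, so its opposite sign rests on the setting. G2 and mitosis medians were 0.53, -1.95 and -0.34 beside 0.29. After thinning, 27.1% of control and 15.1% of MYC-library B lineage barcodes carried S phase transcripts, as did 26.4% and 37.5% of conventional dendritic-like barcodes. Medians over all genes of at least 20 CPM were -0.12, -0.26 and -0.02 in these sets. With 1 library per group the differences between cell types were not tested.

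**Figure D5:**
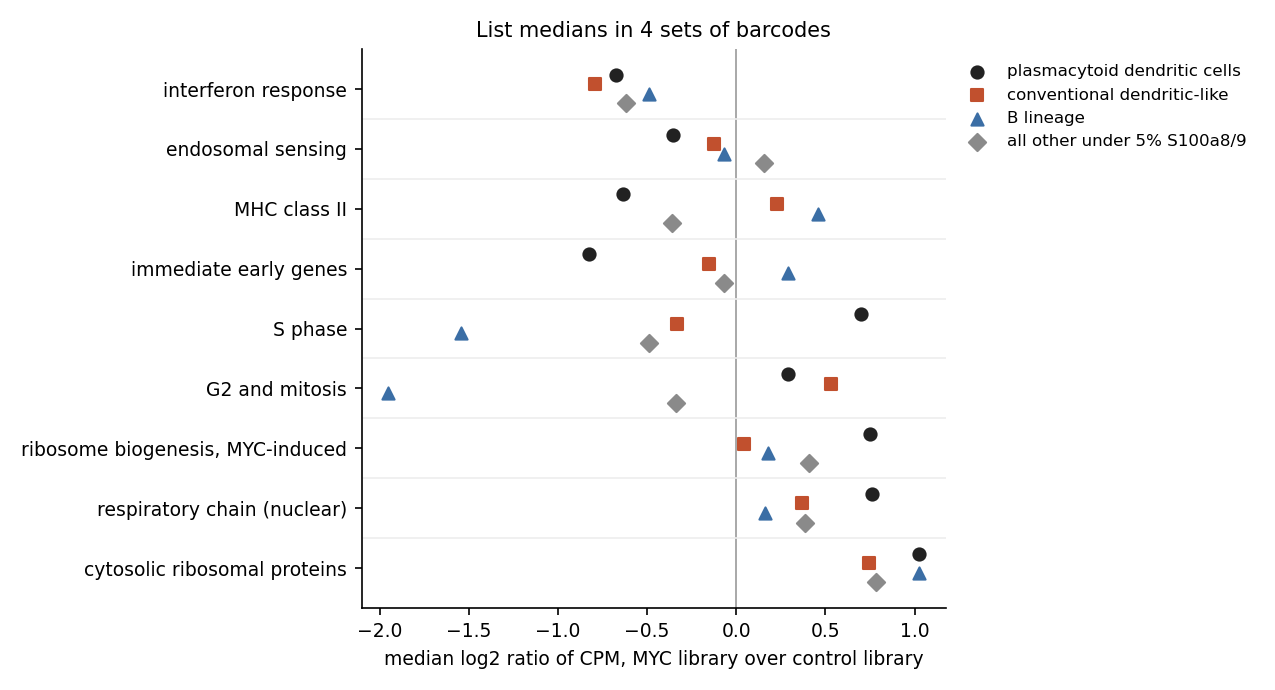
Median log2 ratio of CPM (MYC library over control library) of 9 gene lists in plasmacytoid dendritic cells, conventional dendritic-like barcodes, B lineage barcodes and all other kept barcodes with under 5% S100a8 and S100a9 UMIs. Interferon-response medians lie between -0.79 and -0.49 in the 4 sets, and S phase medians, without thinning, lie at 0.70 in plasmacytoid dendritic cells and below 0 in the other 3.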

How the data were processed

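The 2 libraries were made with a droplet 3′ kit, and the authors deposited tables of raw UMI counts for each barcode and feature, made with Cell Ranger 6.0 per the submitters' processing notes and the file headers. The notes also name Seurat and the builds GRCm38 and mm10; how barcodes were called as cells is not given in the sources used here. The labels name only the genotype, so libraries stand for groups and each is 1 sample. Positions come from GENCODE vM21, which held 99.6% of the 32286 features by identifier.

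The cells and gene lists were chosen with earlier results of these data known. Counts were summed per library and compared as CPM with a pseudocount of 1 CPM, using Python 3.11.15, numpy 2.4.6, scipy 1.17.1 and pandas 2.3.3, with Poisson, conditional binomial, Clopper-Pearson and Newcombe 95% intervals. No test was run, and the calculations were checked on simulated data. Genes were named from the lists, or as the 12 highest and 12 lowest ratios of at least 100 CPM whose interval excludes 1-fold and of whose UMIs no barcode held over 25%. That ranking left out Gm42418 and the genes of the rule, neutrophils, haemoglobin, ribosomes, mitochondria, sex chromosomes and antigen receptors. The 15 genes with the largest fold over other barcodes were also ranked. Conventional dendritic-like barcodes had at least 3 UMIs over Clec9a, Xcr1, Cd209a, Clec10a, Itgax and Zbtb46, at least 3 of H2-Ab1 and no Siglech, and B lineage barcodes had at least 5 UMIs over Cd79a and Cd79b and no Siglech. The Cd79 limit left out 8 control and 2 MYC barcodes and the neutrophil limit 33 and 7. Doublets were not removed: Scrublet in scanpy 1.11.5 called 670 control barcodes (10 of the cells) and 0 in the MYC library, so its calls were not used, and the highest 5% of its scores were left out as an alternative. Alternatives covered the UMI, mitochondrial, marker and neutrophil limits, thinning, scaling, the pseudocount and the gene minimum. Those on Gm42418, at least 20 marker UMIs, haemoglobin and Scrublet scores were chosen after seeing the data. Some genes that these rules would name are not reported here.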

Additional observations from a re-analysis of the deposited data

How the results depend on the processing

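No paired analysis was possible because each group has 1 library, and for the same reason no replicate could be left out; the alternative of removing automatic doublet calls was not run. Of 154 genes past 2-fold, 147 kept their sign and 58 stayed past 2-fold in the 17 alternatives that give gene ratios. The share difference was -0.613 points with under 5% mitochondrial UMIs, and, among barcodes with few S100a8 and S100a9 UMIs, -1.53 points there and -3.45 points without haemoglobin-rich barcodes. Counts past 2-fold higher and lower were 77 and 105 with median-of-ratios scaling, 80 and 150 without Gm42418, 255 and 146 at 50 CPM and 100 and 29 at 200 CPM. Without ribosomal protein genes in the total 316 were higher, and with at least 20 marker UMIs 33 were lower. With median-of-ratios scaling, list medians were -0.57 for sensing, 0.077 for G2 and mitosis, 0.54 for MYC-induced, 0.55 for respiratory and 0.81 for ribosomal protein genes. Without Gm42418 these were -0.58, 0.055, 0.53, 0.53 and 0.80, and MHC class II stood at -0.86. Without ribosomal protein genes in the total, secretory genes stood at 0.26, MYC-induced at 0.96, respiratory at 0.96 and ribosomal protein genes at 1.22. With at least 20 marker UMIs, S phase stood at 0.26, G2 and mitosis at 0.90 and MYC-induced genes at 0.54, and without haemoglobin-rich barcodes S phase stood at 0.91 and G2 and mitosis at 0.63. Klf4 turned to -0.26 with at least 20 marker UMIs. When barcodes were thinned to 2000 UMIs before the rule was applied (225 and 45 cells, so few UMIs per gene), the S phase median turned to -0.14, that of MHC class II to 0.22, that of survival genes to -0.27, and Cx3cr1 turned to -1.69, Lgmn to -5.005, Mga to 0.084, Ms4a6c to -1.28, Pclaf to -0.93 and Spi1 to -2.04. Of the named 2-fold differences, these were also short of 2-fold: Ap3d1, Bid, Ccl4, Dnajb9, Lgmn, Mxd3, Slc15a4 and Spi1 with a pseudocount of 10 CPM; Ctsb, Eif4a1, H2-Aa, Klf4, Lair1, Ms4a6c, Slc15a4 and Spi1 with at least 2 Siglech UMIs; H2-Aa, Ifitm2, Lair1, Ms4a6c and Spi1 with at least 5 marker UMIs. So were Bid, Ikzf2, Ms4a6c, Pclaf and Slc15a4 with under 5% mitochondrial UMIs, Ap3d1, Ctsb, H2-Aa, Lair1, Slc15a4 and Tapbp without ribosomal protein genes in the total, and Ap3d1 and Odc1 without high Scrublet scores. Median-of-ratios scaling took 0.22, the median log2 ratio of genes of at least 100 CPM, off every ratio. Ratios just past 2-fold higher thus also fell short of it on that scale. The cause of these shifts was not tested.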
